A study of Mus musculus with 16 samples.

Results

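The 38 genes described here encode the carriers that bring glucose and lactate across the cell membrane, the enzymes of glycolysis and lactate dehydrogenase, the pyruvate dehydrogenase complex with its kinase, and the enzymes of the citric acid cycle. They were taken from the raw count table by gene symbol and not by a cut on their values, with earlier results of these data known. All 38 had a row among the 46320 rows of the table, and all 38 passed the filter on low counts that left 19964 genes for testing. By role they comprised 4 transporters, 9 genes of upper glycolysis, 6 of lower glycolysis, 2 of lactate dehydrogenase, 5 of the pyruvate dehydrogenase complex and 12 of the citric acid cycle.

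The libraries came from primary motoneurons of E13 mouse lumbar spinal cord. The cells had been enriched by panning for p75NTR and grown in microfluidic chambers, so that RNA could be taken separately from the central compartment with cell bodies and dendrites and from the compartment into which axons had grown. There were 4 groups of 4 libraries each: WT somatodendritic, KO somatodendritic, WT axonal and KO axonal. WT cells were *Hnrnpr* +/+, and KO cells were *Hnrnpr* -/-, from mice in which CRISPR/Cas9 had removed the first exons of *Hnrnpr*, the gene of the RNA-binding protein hnRNP R. Both genotypes received CNTF at 5 ng/ml in both compartments and BDNF at 20 ng/ml in the axonal compartment only, and axonal libraries had more cycles of amplification than somatodendritic ones. Compartment, BDNF, the amplification and whatever cells other than motoneurons grew in each compartment therefore changed together and cannot be told apart in a comparison of compartments. The comparison of genotypes within a compartment addressed whether loss of hnRNP R altered these transcripts.

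In glycolysis a glucose molecule is phosphorylated, rearranged and split, and the resulting trioses are oxidized to pyruvate with a small gain of ATP. Pyruvate is either reduced to lactate by lactate dehydrogenase and exported through monocarboxylate transporters, or enters mitochondria, where pyruvate dehydrogenase turns it into acetyl-CoA for the citric acid cycle. Many steps have several isoenzymes with different tissue patterns. Neurons typically carry the glucose transporter GLUT3 and the enolase isoform encoded by *Eno2*, while glia and vascular cells carry GLUT1 and the isoform encoded by *Eno1*. Several of these genes, among them *Slc2a1*, *Hk2*, *Ldha*, *Slc16a3* and *Pdk1*, are textbook targets of the hypoxia-inducible transcription factor HIF.

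Library totals ran from 22024923 to 34864151 counts, with 22700 to 26072 genes detected. Levels are given as CPM, counts scaled by TMM factors to a common library size, in the order of library 1 to 4 of a group. *Hnrnpr* itself stood at 178, 206, 189.6 and 241 CPM in the WT somatodendritic and 164, 422, 144 and 120.0 CPM in the WT axonal libraries, against 0.659, 1.08, 0.545 and 1.16 CPM and 1.10, 0.994, 0.810 and 0.597 CPM in the corresponding KO libraries, so every library matched its genotype label. Of the 11 motoneuron markers, *Mnx1*, *Isl2* and *Chat* were at 0 or at most 1.31 CPM in every library, while *Nefl* reached 857 to 1593 CPM in the somatodendritic libraries. The summed motoneuron markers ranged from 1190 to 2252 CPM in somatodendritic libraries and from 45.4 to 1205 CPM in axonal ones. The motoneuron sums were made up mostly of the neurofilament gene *Nefl*. *Prph*, a scarce marker of the same list, had its most axonal counts in replicate 3 in WT (90) and replicate 4 in KO (80). The 10 astrocyte or radial glia markers summed to 1647 to 3161 CPM in somatodendritic and 4020 to 7660 CPM in axonal libraries, and the 10 fibroblast, meningeal or pericyte markers to 79.0 to 1340 CPM and 1270 to 11310 CPM. Of the astrocyte list, *Fabp7* and *Vim* held the most counts in every axonal library. *Vim* and *Tnc* were highest in axonal replicate 3 of both genotypes, and *Aldoc*, on the same list, is itself a glycolysis gene. Replicate 3 of both axonal groups stood apart, with the lowest motoneuron sums (106 CPM in WT and 45.4 CPM in KO) and the highest fibroblast sums (11310 CPM in WT and 10200 CPM in KO). These fibroblast sums were made up mostly of *Acta2*, a smooth muscle actin also made by myofibroblasts and pericytes, at 9784 and 8734 CPM. *Acta2* and *Tagln* were highest in axonal replicate 3 of both genotypes, while the other 8 markers of that list, the collagen genes among them, were highest in axonal replicate 4 or 1. Results that rest on these libraries are given with and without them. In bulk RNA of this kind, fewer cells of a type and less of an RNA per cell cannot be told apart.

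Per kilobase of exon, the top 3 places among the 38 genes were held in all 4 groups by *Gapdh* (glyceraldehyde phosphate dehydrogenase), *Eno1* (alpha enolase) and *Aldoa* (aldolase A). *Gapdh* stood at 523 ± 106 CPM per kb and *Eno1* at 477 ± 159 CPM per kb (SD, n = 4) in the WT somatodendritic libraries, and these spreads overlapped. In the WT axonal libraries *Eno1* held the top place at 1034 ± 207 CPM per kb, with *Gapdh* at 789 ± 225 CPM per kb, and their spreads also met. The citric acid cycle was led by *Mdh2*, the mitochondrial malate dehydrogenase, at 359 ± 15.5 CPM per kb in WT somatodendritic and 488 ± 42.2 CPM per kb in WT axonal libraries. At the other end lay *Hk2*, the inducible hexokinase, with 1.86 ± 1.68 CPM per kb in the WT somatodendritic and 1.52 ± 0.872 CPM per kb in the WT axonal libraries. *Slc16a3*, *Pgm2l1* and *Slc16a1* were also low, at 6.59 ± 6.68, 7.90 ± 1.18 and 7.48 ± 1.11 CPM per kb in the WT somatodendritic libraries.

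**Figure D1:**
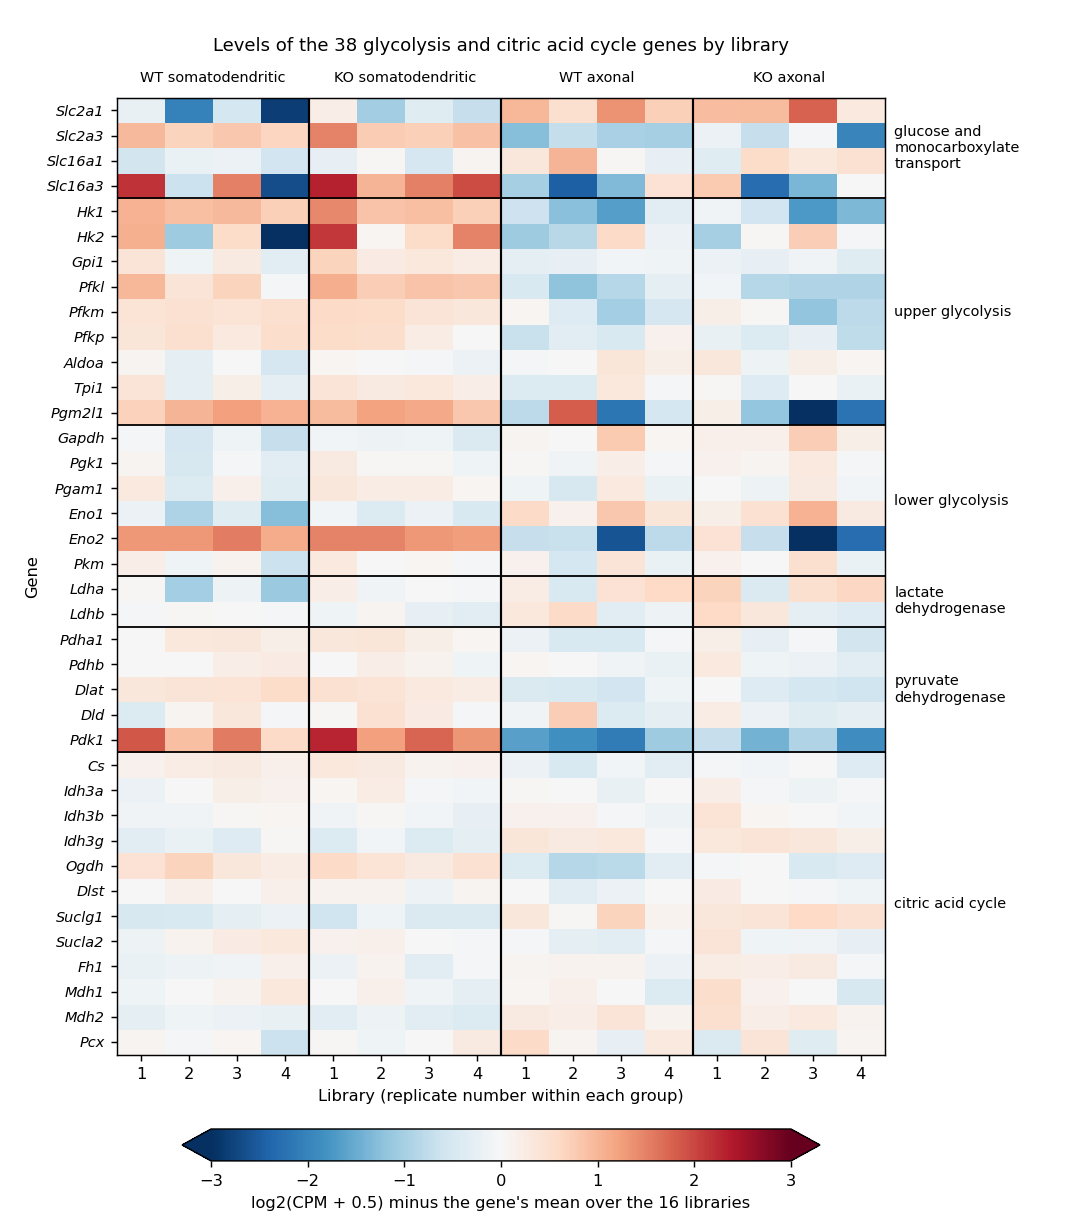
Heat map of the 38 genes (rows, grouped by role) in the 16 libraries (columns, grouped by genotype and compartment). Colour gives log2(CPM + 0.5) minus the mean of the gene over the 16 libraries. *Pdk1*, *Eno2*, *Hk1* and *Slc2a3* were lower and *Slc2a1* and *Eno1* higher in axonal than in somatodendritic libraries, and *Slc2a1*, *Slc16a3* and *Hk2* varied among the 4 WT somatodendritic libraries.

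Compared between compartments in WT, 8 of the 38 genes were higher and 11 lower in axonal libraries at an adjusted p under 0.05 (edgeR quasi-likelihood F-test, Benjamini-Hochberg over all 19964 genes), and 19 did not pass. Among all genes tested, 30.1% were called higher and 27.4% lower in this comparison, so the share of members called was not above the background. The median log2 fold change of the members was -0.125, beside 0.0719 for all genes. In KO, 6 members were higher, 12 lower and 20 not called, against a background of 27.5% higher and 26.8% lower, with a median of -0.108 beside -0.00282 for all genes. Scaling by library totals in place of TMM factors moved the median of all genes to 0.222 in WT and 0.115 in KO, with 10 members higher and 10 lower in WT and 8 higher and 10 lower in KO. The calls of both genotypes coincided for 6 higher and 10 lower members, and no member was called in opposite directions. For none of the 38 did the compartment difference itself differ between genotypes in the interaction term (smallest unadjusted p = 0.145, for *Ogdh*), so a call in 1 genotype alone is not a difference between genotypes. The counts by role were small and are read against the same background, with no test between roles. Upper glycolysis gave 0 higher and 4 lower of 9 in WT (0 and 6 in KO), and pyruvate dehydrogenase with its kinase 0 higher and 3 lower of 5 (0 and 2 in KO). The other roles gave 2 higher and 1 lower of the 4 transporters in WT (1 and 1 in KO), 1 higher and 0 lower of the 2 lactate dehydrogenase genes in WT (0 and 0 in KO), 2 higher and 1 lower of 6 in lower glycolysis and 3 higher and 2 lower of 12 in the citric acid cycle in both genotypes.

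**Figure D2:**
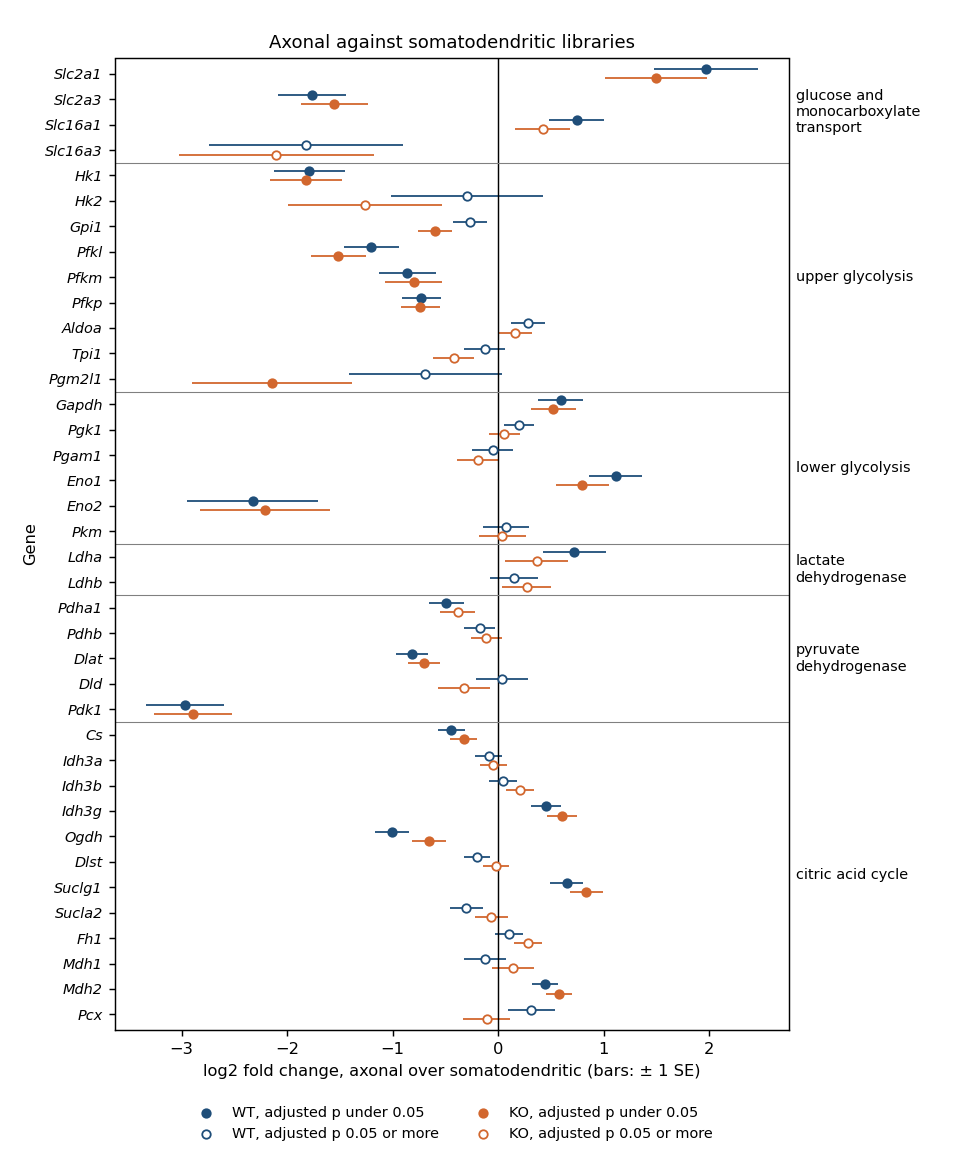
Log2 fold change of axonal over somatodendritic libraries (x axis, bars ± 1 SE) for each of the 38 genes (y axis, by role) in WT (blue) and KO (orange). Filled points passed an adjusted p of 0.05 in the edgeR fit. *Pdk1* (-2.97 in WT, -2.89 in KO) and *Slc2a1* (1.97 in WT, 1.50 in KO) mark the ends of the range.

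The carriers of glucose divided by isoform. *Slc2a1* (chr4:118965942-118994527 in GRCm39), which encodes GLUT1, stood at 88.6, 24.98, 70.9 and 14.2 CPM in the WT somatodendritic and 205, 145, 263 and 169 CPM in the WT axonal libraries. The KO values were 118, 49.2, 79.1 and 63.5 CPM and 197, 199, 352 and 125 CPM. Every axonal library was above every somatodendritic library of its genotype, and the WT somatodendritic libraries 2 and 4 lay far below 1 and 3. The log2 fold change was 1.97 ± 0.49 (SE) in WT (adjusted p = 0.00356, edgeR) and 1.50 ± 0.49 in KO (adjusted p = 0.0173). Without KO axonal replicate 3, the library with the most *Slc2a1*, the KO call was lost (adjusted p = 0.0579, edgeR), and without both axonal replicates 3 the adjusted p was 0.00995 in WT and 0.0728 in KO. *Slc2a3* (chr6:122704768-122779322), which encodes the neuronal carrier GLUT3, went the other way. Its WT libraries held 283, 229.7, 254 and 229 CPM in the somatodendritic and 59.2, 88.2, 73.2 and 72.99 CPM in the axonal compartment, and its KO libraries 405, 246, 237 and 266 CPM and 128, 89.4, 141 and 36.2 CPM, with no overlap in either genotype. The level in axonal libraries was 3.39-fold lower in WT (log2 fold change -1.76 ± 0.32, adjusted p = 0.000424, edgeR) and 2.93-fold lower in KO (adjusted p = 0.0011).

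Of the monocarboxylate transporters, *Slc16a1*, which encodes the widely expressed MCT1, measured 29.1, 37.00, 37.8 and 28.6 CPM in WT somatodendritic and 54.7, 87.6, 43.5 and 36.2 CPM in WT axonal libraries, and 36.2, 43.6, 30.2 and 45.2 CPM and 33.1, 63.1, 53.4 and 58.4 CPM in KO. The groups overlapped, and WT axonal replicate 2 was the highest library. In WT the log2 fold change was 0.74 ± 0.26 (adjusted p = 0.0248, edgeR), a call that was lost without WT axonal replicate 2 or without WT somatodendritic replicate 1 or 4 (adjusted p up to 0.115). In KO it was 0.42 ± 0.26 and did not pass (adjusted p = 0.185, edgeR). *Slc16a3*, which encodes MCT4, the lactate exporter of strongly glycolytic cells, stood at 54.1, 7.16, 34.1 and 1.41 CPM in WT somatodendritic and 5.59, 1.70, 4.32 and 15.8 CPM in WT axonal libraries. In KO it stood at 59.7, 23.9, 34.2 and 46.1 CPM and 20.4, 1.96, 4.14 and 11.7 CPM. The WT somatodendritic libraries spanned almost the whole range, from the lowest to nearly the highest value of the 16, and the WT groups overlapped while the KO groups did not. The log2 fold changes, -1.82 ± 0.92 in WT and -2.10 ± 0.93 in KO, did not pass (adjusted p = 0.103 and 0.0671, edgeR). In WT the value ran from -2.60 to -1.01 with 1 library left out, and it passed without somatodendritic replicate 4 (adjusted p = 0.0399, edgeR) or axonal replicate 4 (0.0415). In KO it passed without KO axonal replicate 1 (0.0315) or WT somatodendritic replicate 4 (0.0389). With a block for the culture, since KO libraries of the same number varied together, the KO value was -2.52 and passed at an adjusted p of 0.0351, and DESeq2 also called it (adjusted p = 0.0273). *Slc16a3* shares its locus with *Csnk1d* on the opposite strand, and the kit used does not mark strand, so reads of both cannot be told apart where they overlap. The same limit holds for *Pfkp* (with *Pitrm1*), *Pfkm* (*Senp1*), *Idh3b* (*Nop56*), *Pcx* (*Lrfn4*), *Pdha1* (*Map3k15*) and *Ldha* (*Gm39011*), and for *Tpi1*, *Slc2a1*, *Hk1*, *Ogdh*, *Dlst* and *Pkm* with partners of fewer counts.

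Upper glycolysis ran lower in axonal libraries for the neuronal hexokinase and all phosphofructokinase genes. *Hk1* (chr10:62104634-62215699), the hexokinase of brain that binds mitochondria, measured 673, 611, 638 and 532 CPM in WT somatodendritic against 212, 136, 104 and 260.3 CPM in WT axonal libraries. In KO the values were 889, 591, 608 and 538 CPM against 302, 218, 98.7 and 127 CPM. No axonal library reached any somatodendritic library, and replicate 3 was the lowest axonal library in both genotypes. *Hk1* was thus 3.45-fold lower in WT (log2 fold change -1.79 ± 0.34, adjusted p = 0.000601, edgeR) and 3.52-fold lower in KO (adjusted p = 0.000631). *Hk2* was scarce, with 22.9, 4.86, 15.98 and 0.892 CPM in WT somatodendritic and 4.84, 5.79, 16.4 and 9.48 CPM in WT axonal libraries. Its KO libraries held 48.8, 11.3, 16.1 and 31.3 CPM and 5.14, 10.99, 18.3 and 10.5 CPM. The compartments overlapped in both genotypes, WT somatodendritic replicate 4 was the lowest of the 16 libraries, and neither log2 fold change (-0.30 ± 0.72 in WT, -1.26 ± 0.73 in KO) passed (adjusted p = 0.744 and 0.156, edgeR).

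Phosphofructokinase, the enzyme of the committed step, is encoded by the liver-type *Pfkl*, the muscle-type *Pfkm* and the platelet-type *Pfkp*, all of which brain expresses. *Pfkl* fell from 406, 266, 325 and 200.2 CPM in WT somatodendritic to 149.7, 87.7, 113 and 171 CPM in WT axonal libraries, and from 436, 343, 372 and 356 CPM to 195, 113, 109.9 and 109 CPM in KO. The groups did not overlap. Its log2 fold change was -1.20 ± 0.26 in WT (adjusted p = 0.00138, edgeR) and -1.51 ± 0.26 in KO (adjusted p = 0.000359). *Pfkm* measured 212, 222, 215 and 225 CPM in WT somatodendritic and 167, 122, 78.9 and 113 CPM in WT axonal libraries, and 239, 237, 210.0 and 202 CPM and 182, 166, 70.2 and 92.3 CPM in KO, with axonal replicate 3 lowest in both genotypes and no overlap. It was 1.82-fold lower in WT (adjusted p = 0.0134, edgeR) and 1.74-fold lower in KO (adjusted p = 0.0208). The WT call was lost without axonal replicate 3 (adjusted p = 0.058, edgeR) and the KO call without somatodendritic replicate 1 or 2 or axonal replicate 3 or 4 (up to 0.0759). Without both axonal replicates 3 together, both calls stood (adjusted p = 0.0105 in WT and 0.0245 in KO, edgeR). *Pfkp* stood at 228, 247, 217 and 256 CPM and 111, 141, 128 and 193 CPM in the WT somatodendritic and axonal libraries and at 257, 255, 204 and 175 CPM and 151, 132, 149 and 104 CPM in the KO ones. The groups again lay apart, by 1.66-fold in WT (adjusted p = 0.00426, edgeR) and 1.67-fold in KO (adjusted p = 0.00437). Without WT somatodendritic replicates 2 and 4 the WT call of *Pfkp* was lost (adjusted p = 0.065, edgeR).

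The other upper glycolytic genes changed less or varied more. *Gpi1*, the glucose phosphate isomerase, held 665, 461, 610.5 and 407 CPM in WT somatodendritic and 416, 429, 475 and 463 CPM in WT axonal libraries, and 803, 600.5, 634 and 589 CPM and 447, 430.1, 468 and 395 CPM in KO. The 8 axonal libraries were close to each other, and WT somatodendritic replicates 2 and 4 lay in their range, so that the compartments overlapped in WT and not in KO. The log2 fold change was -0.27 ± 0.16 in WT (adjusted p = 0.173, edgeR) and -0.59 ± 0.16 in KO, where it passed (adjusted p = 0.0067). *Pgm2l1*, whose product makes the glucose bisphosphate cofactor of phosphoglucomutases, stood at 55.5, 70.1, 80.4 and 70.8 CPM in WT somatodendritic and 19.5, 122, 7.15 and 23.3 CPM in WT axonal libraries, and at 66.8, 79.7, 75.7 and 59.7 CPM and 38.7, 14.9, 3.30 and 6.93 CPM in KO. WT axonal replicate 2 was the highest of the 16 libraries, and every other axonal library was below all somatodendritic ones. In KO the log2 fold change was -2.14 ± 0.76 (adjusted p = 0.0263, edgeR), a call lost without KO somatodendritic replicate 2 or KO axonal replicate 2, 3 or 4 (adjusted p up to 0.0724). In WT it was -0.69 ± 0.73 (adjusted p = 0.434, edgeR), and without WT axonal replicate 2 it passed at an adjusted p of 0.0131. *Aldoa* (0.28 ± 0.16 in WT, 0.16 ± 0.16 in KO) and *Tpi1*, the triose phosphate isomerase (-0.13 ± 0.19 and -0.42 ± 0.19), did not pass in either genotype. With scaling by library totals *Aldoa* passed in WT (adjusted p = 0.0181, edgeR), and with a block by replicate number *Tpi1* passed in KO (0.04).

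Lower glycolysis was led by an exchange between the enolase genes. *Eno1* (chr4:150321165-150333336) measured 1295, 772, 1147 and 609 CPM in WT somatodendritic and 2176, 1614, 2593 and 1909 CPM in WT axonal libraries. In KO it measured 1397, 1111, 1306 and 1078 CPM and 1666, 2033, 3039 and 1778 CPM. Axonal libraries were above somatodendritic ones throughout, and replicate 3 was the highest axonal library in both genotypes. The rise was 2.17-fold in WT (log2 fold change 1.12 ± 0.25, adjusted p = 0.00177, edgeR) and 1.74-fold in KO (0.80 ± 0.25, adjusted p = 0.0138). Without both axonal replicates 3 it passed in WT (adjusted p = 0.00392, edgeR) and not in KO (adjusted p = 0.0585). Reads of *Eno1* are shared with near-identical copies, which held 32.1% of the counts of the family, and the copy *Eno1b* had a log2 fold change of 1.10 ± 0.24 in WT and 0.78 ± 0.24 in KO. *Eno2* (chr6:124737016-124746636), the neuron-specific enolase, went from 351, 350.3, 417 and 308 CPM in WT somatodendritic to 88.04, 90.2, 23.2 and 82.8 CPM in WT axonal libraries, and from 399, 403, 352 and 341 CPM to 193, 88.98, 12.2 and 29.1 CPM in KO. No axonal value reached a somatodendritic one, axonal replicate 3 was lowest in both genotypes, and KO axonal replicate 1 was well above the other KO axonal libraries. *Eno2* was 5.02-fold lower in WT (log2 fold change -2.33 ± 0.62, adjusted p = 0.00536, edgeR) and 4.63-fold lower in KO (-2.21 ± 0.62, adjusted p = 0.00775), and both calls stood without the axonal replicates 3 (adjusted p = 0.00151 and 0.00276). The summed motoneuron markers, mostly *Nefl*, followed the same libraries, with their lowest axonal values in replicates 3 and their highest in KO axonal replicate 1 (1205 CPM). Their part in the enolase values was not tested.

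*Gapdh* stood at 1084, 806, 1042 and 702 CPM in WT somatodendritic and 1199, 1145, 1955 and 1179.7 CPM in WT axonal libraries, and at 1076, 1019, 1029 and 842 CPM and 1262, 1261, 1899.8 and 1284 CPM in KO. Axonal replicate 3 was far above the other 3 axonal libraries in both genotypes, although the compartments did not overlap. The log2 fold changes of 0.59 ± 0.21 in WT and 0.52 ± 0.21 in KO passed (adjusted p = 0.0252 and 0.0454, edgeR). Without both axonal replicates 3 they were 0.35 and 0.35 and no longer passed (adjusted p = 0.0838 and 0.0897). Single libraries whose removal ended the call were axonal replicate 3 and somatodendritic replicates 2 and 4 in WT (adjusted p up to 0.0764, edgeR). In KO they were somatodendritic replicates 2, 3 and 4, KO axonal replicates 3 and 4 and WT axonal replicate 1 (up to 0.126), the last of which enters this comparison only through the shared scaling and spread. *Pgk1* and *Pkm*, the kinases that yield ATP, and *Pgam1*, the phosphoglycerate mutase, did not pass in either genotype. Their log2 fold changes were 0.20 ± 0.15, 0.07 ± 0.22 and -0.05 ± 0.19 in WT. With scaling by library totals *Pgk1* passed in WT (adjusted p = 0.0428, edgeR). The copies near-identical to *Pgk1* and *Pgam1* held 40.9% and 37.6% of the family counts, and those of *Gapdh* 14.1%, so the level of each of these genes alone is uncertain. With all copies added to their members, the counts of called members remained 19 in WT and 18 in KO.

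Lactate dehydrogenase is a tetramer of subunits from *Ldha*, abundant in glycolytic tissue, and *Ldhb*, abundant in oxidative tissue. *Ldha* measured 1083, 520.2, 953 and 485 CPM in WT somatodendritic and 1226, 772, 1423 and 1602 CPM in WT axonal libraries. In KO it measured 1218, 985, 1056 and 1030.2 CPM and 1672, 776, 1466 and 1609 CPM. The compartments overlapped in both genotypes, since axonal replicate 2, the lowest axonal library of each genotype, lay below WT somatodendritic replicates 1 and 3 and below all KO somatodendritic libraries. In WT its log2 fold change of 0.72 ± 0.30 passed narrowly (adjusted p = 0.0495, edgeR), and the call was lost on leaving out any of 9 single libraries (adjusted p up to 0.113). These were WT somatodendritic 2 and 4, KO somatodendritic 3 and 4, WT axonal 1, 3 and 4 and KO axonal 1 and 4. In KO the log2 fold change was 0.37 ± 0.30 (adjusted p = 0.314, edgeR). *Ldhb* stood at 337, 359, 347 and 341 CPM in WT somatodendritic and 437, 516, 273 and 311 CPM in WT axonal libraries, and at 319, 369, 294 and 280.4 CPM and 528, 444, 283 and 268 CPM in KO. Its WT somatodendritic libraries were close to equal, in contrast to *Ldha*, and its log2 fold changes (0.15 ± 0.23 in WT, 0.27 ± 0.23 in KO) did not pass (adjusted p = 0.591 and 0.337, edgeR).

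At the entry to mitochondria, the largest change of all 38 genes was that of *Pdk1* (chr2:71703398-71734202), the kinase that switches pyruvate dehydrogenase off. *Pdk1* stood at 149, 76.7, 121 and 60.5 CPM in WT somatodendritic and 12.8, 11.01, 9.03 and 19.1 CPM in WT axonal libraries, and at 201, 95.1, 137 and 103 CPM and 25.1, 14.9, 21.4 and 10.9 CPM in KO. All axonal libraries were far below all somatodendritic ones. The level in axonal libraries was 7.82-fold lower in WT (log2 fold change -2.97 ± 0.37, adjusted p = 3.87e-05, edgeR) and 7.42-fold lower in KO (-2.89 ± 0.37, adjusted p = 5.73e-05), and with any 1 library left out it was -3.17 to -2.68 in WT and -3.10 to -2.58 in KO. Of the complex itself, *Dlat*, its acetyltransferase, fell in both genotypes, with log2 fold changes of -0.81 ± 0.15 in WT and -0.70 ± 0.15 in KO (adjusted p = 0.000515 and 0.00158, edgeR). *Pdha1*, the catalytic alpha subunit, passed in WT at -0.49 ± 0.17 (adjusted p = 0.0201, edgeR) and not in KO at -0.38 ± 0.17 (adjusted p = 0.061), where it passed without KO axonal replicate 1 (adjusted p = 0.0168) or without both axonal replicates 3 (0.049). Its WT call was lost without WT somatodendritic replicate 2, 3 or 4 or WT axonal replicate 3 (adjusted p up to 0.0874, edgeR). The beta subunit *Pdhb* (-0.18 ± 0.14 in WT, -0.11 ± 0.14 in KO) and the shared dihydrolipoamide dehydrogenase *Dld* (0.04 ± 0.24 and -0.32 ± 0.24) did not pass.

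Within the citric acid cycle the called changes went both ways, with *Ogdh* at the lower end in both genotypes. *Ogdh*, the first subunit of the oxoglutarate dehydrogenase complex, measured 429, 506, 403 and 371 CPM in WT somatodendritic and 239, 176, 183 and 253 CPM in WT axonal libraries, and 479, 426, 385 and 437 CPM and 305, 316, 231 and 245 CPM in KO. The compartments did not overlap. It was 2.01-fold lower in WT axonal libraries (SE of the log2 value 0.16, adjusted p = 0.000202, edgeR) and 1.57-fold lower in KO (-0.65 ± 0.16, adjusted p = 0.00378). *Dlst*, the succinyltransferase of the same complex, did not pass (-0.20 ± 0.13 in WT and -0.02 ± 0.13 in KO). *Cs*, citrate synthase, was lower by a small amount, -0.44 ± 0.13 in WT (adjusted p = 0.00811, edgeR) and -0.33 ± 0.13 in KO (adjusted p = 0.0408). Its WT call was lost without WT somatodendritic replicates 2 and 4 (adjusted p = 0.0791, edgeR). The KO call of *Cs* was lost with a block for the culture (adjusted p = 0.0713, edgeR) and on leaving out any of 11 single libraries (up to 0.169), namely all but KO somatodendritic 3 and 4, WT axonal 1 and 2 and KO axonal 1.

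Higher in axonal libraries were *Suclg1*, the alpha subunit of succinyl-CoA ligase, *Idh3g*, a regulatory subunit of isocitrate dehydrogenase, and *Mdh2*. *Suclg1* stood at 91.03, 92.8, 106 and 112 CPM in WT somatodendritic and 161, 131, 203 and 137 CPM in WT axonal libraries, and at 84.3, 116, 94.4 and 94.6 CPM and 161, 167, 192 and 175 CPM in KO, with no overlap. Its log2 fold change was 0.65 ± 0.15 in WT (adjusted p = 0.00256, edgeR) and 0.84 ± 0.16 in KO (adjusted p = 0.000588). For *Idh3g* the values were 131, 144, 127 and 170.0 CPM in WT somatodendritic and 215, 201, 208 and 160.4 CPM in WT axonal libraries, and 125, 157, 125 and 135 CPM and 208, 218, 211 and 187 CPM in KO. The WT groups overlapped through replicate 4 of both compartments, and the KO groups lay apart. The log2 fold change was 0.46 ± 0.14 in WT and 0.61 ± 0.14 in KO (adjusted p = 0.0114 and 0.00226, edgeR). *Mdh2* measured 439, 483, 469.5 and 449.5 CPM and 638, 604, 694 and 567 CPM in the WT somatodendritic and axonal libraries, and 416, 479, 418 and 398 CPM and 739, 607, 645 and 564 CPM in the KO ones, again without overlap. It was 1.36-fold higher in WT and 1.50-fold higher in KO (adjusted p = 0.00667 and 0.00137, edgeR). Its cytosolic counterpart *Mdh1* ranged from 495 to 742 CPM in somatodendritic and from 423 to 860 CPM in axonal libraries and did not pass (-0.12 ± 0.20 in WT, 0.14 ± 0.20 in KO). The remaining genes of the cycle did not pass in either genotype. The log2 fold changes in WT and KO were -0.09 ± 0.13 and -0.05 ± 0.13 for the catalytic *Idh3a*, 0.05 ± 0.13 and 0.21 ± 0.13 for the regulatory *Idh3b*, and -0.30 ± 0.16 and -0.06 ± 0.16 for the ATP-forming *Sucla2*. Pyruvate carboxylase *Pcx*, which refills the cycle, was at 0.32 ± 0.22 and -0.11 ± 0.22. Fumarase *Fh1* was at 0.11 ± 0.13 and 0.29 ± 0.13, and its KO value (adjusted p = 0.0841, edgeR) passed without KO somatodendritic replicate 2 (0.0372) or WT axonal replicate 4 (0.0476) and with DESeq2 (0.0434). With scaling by library totals *Idh3b* and *Fh1* passed in KO (adjusted p = 0.0489 and 0.0265, edgeR).

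The balance of isoenzymes was compared within libraries, as the share of the first gene of a pair per kilobase of exon, which does not depend on the scaling between libraries. For 8 pairs and 4 comparisons, 32 exact two-sided permutation tests were made, in which 4 libraries against 4 cannot give a p below 0.0286. The share of *Eno2* in *Eno2* plus *Eno1* was 13.9%, 21.3%, 17.8% and 23.1% in the WT somatodendritic libraries and 2.35%, 3.22%, 0.530% and 2.52% in the WT axonal ones. In KO it averaged 15.5% ± 1.73 (SD, n = 4) and 2.55% ± 2.77. The groups did not overlap in either genotype, and the ratio was 12.7-fold lower in WT and 12.8-fold lower in KO axonal libraries (exact permutation p = 0.0286 for each).

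The share of *Slc2a3* in *Slc2a3* plus *Slc2a1* was 59.4%, 80.8%, 62.1% and 88.1% in WT somatodendritic and 11.7%, 21.8%, 11.3% and 16.5% in WT axonal libraries. It ranged from 57.8% to 69.5% and from 11.7% to 22.9% in the KO compartments. The groups again lay apart, with a ratio 16.8-fold lower in WT and 8.94-fold lower in KO (exact permutation p = 0.0286 for each). For *Mdh2* against *Mdh1* the share rose from 52.9% ± 3.33 (SD, n = 4) to 62.4% ± 3.31 in WT and from 53.4% ± 1.35 to 61.3% ± 4.49 in KO, a change of 1.48-fold and 1.39-fold in the ratio (exact permutation p = 0.0286 for each). After adjustment over the 32 tests the smallest p was 0.152, so none of the 3 passed. At the floor of 0.0286 a pair could pass only if most of the 32 tests reached it. The adjusted p therefore cannot decide on these pairs. The hexokinase, phosphofructokinase, lactate dehydrogenase and monocarboxylate transporter pairs overlapped between compartments in both genotypes. None of the 8 pairs separated the genotypes in either compartment.

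**Figure D3:**
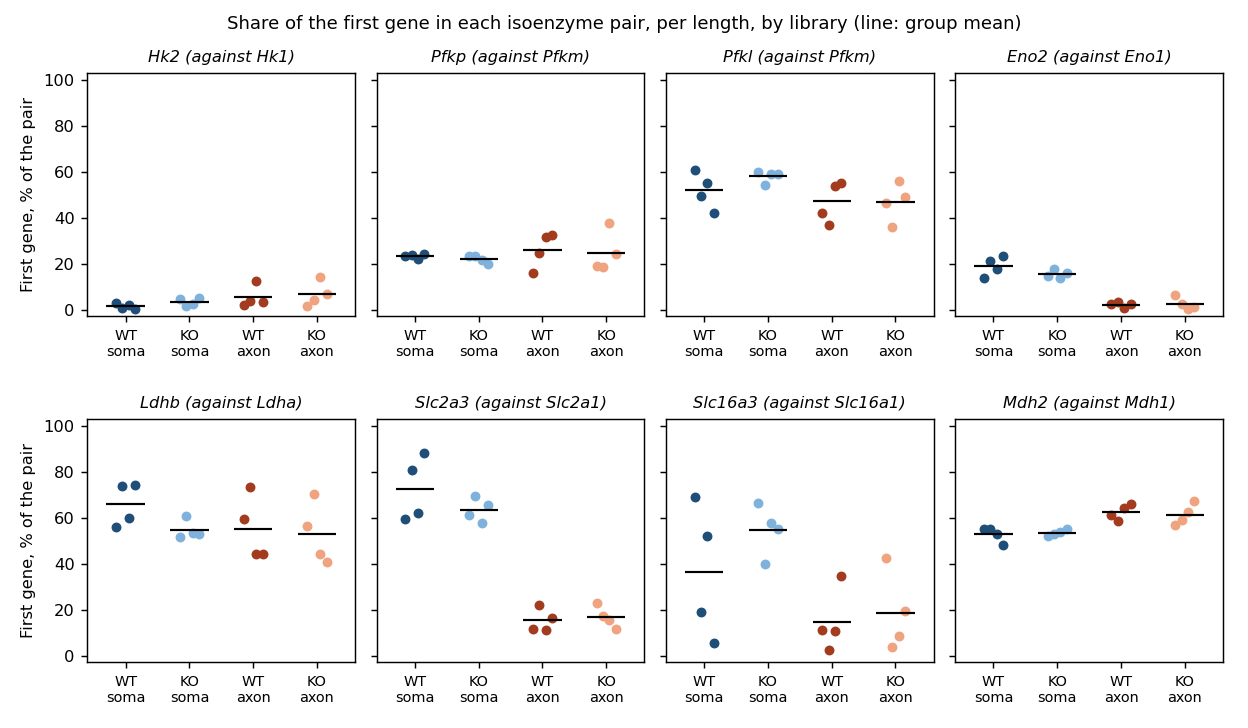
Share of the first gene in each of 8 isoenzyme pairs (y axis, percent of the summed counts per kb of the pair) by group (x axis). Each point is 1 library and each line the mean of 4 libraries. *Eno2* and *Slc2a3* held smaller shares in all axonal than in all somatodendritic libraries and *Mdh2* larger ones, while the other 5 pairs overlapped.

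Genes of the same routes outside the 38 also went both ways between compartments. Against 30.1% higher and 27.4% lower over all genes in WT, and 27.5% and 26.8% in KO, several of the counts that follow lie near the background. Of 31 other glycolysis and sugar transport genes tested, 8 were higher and 9 lower in WT axonal libraries (7 and 7 in KO). Among those averaging 10 CPM or more across the libraries, *Eno3*, the muscle enolase, and *Slc2a4*, which encodes GLUT4, rose most in WT (log2 fold change 2.65 ± 0.36 and 2.59 ± 0.31), and *Slc16a7* and *Slc2a13* fell most (-1.90 ± 0.29 and -1.68 ± 0.37, edgeR adjusted p from 3.43e-05 to 0.00158). Of 33 other pyruvate and citric acid cycle genes tested, 14 were higher and 10 lower (15 and 8 in KO). *Idh2*, the mitochondrial NADP-dependent isocitrate dehydrogenase, rose from a mean of 56.9 to 273 CPM in WT (log2 fold change 2.26 ± 0.42, adjusted p = 0.000485, edgeR), and *Acly*, ATP citrate lyase, fell from 1598 to 464 CPM (-1.78 ± 0.29, adjusted p = 0.000202). The next in each direction were *Suclg2*, the GTP-forming partner of *Suclg1* (1.70 ± 0.32), and *Slc25a12*, a mitochondrial aspartate and glutamate carrier (-1.56 ± 0.30), and in KO *Slc25a10*, the dicarboxylate carrier (1.71 ± 0.32), took the second place among the increases. *Pdk4*, another pyruvate dehydrogenase kinase, lay below that level limit and is named after its values were seen. It held 1.06, 0.720, 0.911 and 1.13 CPM in WT somatodendritic and 6.44, 11.95, 4.84 and 8.08 CPM in WT axonal libraries, and was higher in axonal libraries of both genotypes (3.03 ± 0.49 in WT and 1.82 ± 0.47 in KO, adjusted p = 0.000208 and 0.00486, edgeR), the opposite direction to *Pdk1*, although the compartments overlapped in KO. The kinase genes *Pdk2* and *Pdk3* were on the same list. In WT axonal libraries *Pdk2* had 1468, 1558, 1022 and 1950 counts and *Pdk3* 1512, 1510, 1784 and 2209. *Pdk1* had 377, 407, 278 and 624 counts there, but more than either in every WT somatodendritic library. All 7 pentose phosphate genes were tested, of which 4 were higher and 0 lower in WT (3 and 0 in KO), led by *Pgls* (1.21 ± 0.17) and *Taldo1* (1.20 ± 0.18). Of 14 genes of the hypoxia response outside glycolysis, 4 were higher and 4 lower in WT (5 and 4 in KO), with *Adm* (adrenomedullin) at 5.50 ± 1.00 and *Epas1*, which encodes a HIF alpha subunit, at 2.28 ± 0.48 the largest increases and *Ddit4* at -3.18 ± 0.37 and *Bnip3* at -2.04 ± 0.46 the largest decreases from 10 CPM up. *Adm* held 4.16, 1.26, 3.73 and 1.78 CPM in the WT somatodendritic and 111, 19.9, 69.2 and 299 CPM in the WT axonal libraries, so the compartments did not overlap although the axonal libraries differed widely.

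Between genotypes, 0 of the 38 genes passed in either compartment. In the somatodendritic compartment 0 of 38 passed an adjusted p of 0.05 (edgeR), where 0.00501% of all genes did, and 0 had an unadjusted p under 0.05, where 0.601% did. In the axonal compartment 0 of 38 passed, against 0.01% of all genes, and 1 had an unadjusted p under 0.05, against 3.88% of all genes. In the difference of the genotype effects between compartments 0 passed (0.0% of all genes) and 0 had an unadjusted p under 0.05 (1.33% of all genes). DESeq2 in its default form and with betaPrior also called 0 members in the 3 comparisons, with 2 members at an unadjusted p under 0.05 in the axonal compartment in each. The median log2 fold change of KO over WT was 0.0827 for the members in the somatodendritic compartment (0.00169 for all genes) and 0.0892 in the axonal compartment (0.0194 for all genes).

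The axonal gene with the smallest p was *Ogdh*, whose 4 KO axonal libraries (305, 316, 231 and 245 CPM) overlapped the WT ones (239, 176, 183 and 253 CPM). KO was 1.29-fold higher, with a log2 fold change of 0.37 ± 0.16 (unadjusted p = 0.0387, adjusted p = 1.0, edgeR). In the somatodendritic compartment the 3 smallest p-values belonged to *Gpi1* (0.29 ± 0.16, unadjusted p = 0.0899), *Hk2* (1.26 ± 0.73, 0.103) and *Ldha* (0.50 ± 0.30, 0.117), each with an adjusted p of 1.0 in edgeR. For all 3 genes WT libraries 2 and 4 were below every KO library, while WT libraries 1 and 3 lay among or near the KO libraries. Without WT somatodendritic libraries 2 and 4, which were picked for being low, the log2 fold changes had to be smaller, at 0.06, 0.50 and 0.10. Without WT somatodendritic library 1, a high one, they were larger, at 0.43, 1.92 and 0.73 (unadjusted p = 0.022, 0.0296 and 0.0329, edgeR), and 7 of 38 members had an unadjusted p under 0.05, where 165 of all 20430 genes of that fit did. In both of these fits 0 of 38 members passed the adjusted threshold. The smallest p-values of the difference between compartments were those of *Ogdh* (0.35 ± 0.23, unadjusted p = 0.145), *Gpi1* (-0.33 ± 0.23, 0.171) and *Pgm2l1* (-1.45 ± 1.03, 0.179), with adjusted p = 1.0 in edgeR. The *Pgm2l1* values rested on WT axonal replicate 2, the highest library for this gene. Without it the difference between compartments was -0.09 and the log2 fold change of KO over WT in axons -0.06, in place of -1.43, and without KO axonal replicate 1 they were -2.38 and -2.35. The widest errors were those of the scarce or uneven genes *Slc16a3*, *Pgm2l1* and *Hk2*, whose SE ran from 0.72 to 0.90 on the log2 scale in the comparisons of genotypes, so that changes of that size were not detectable for them.

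**Figure D4:**
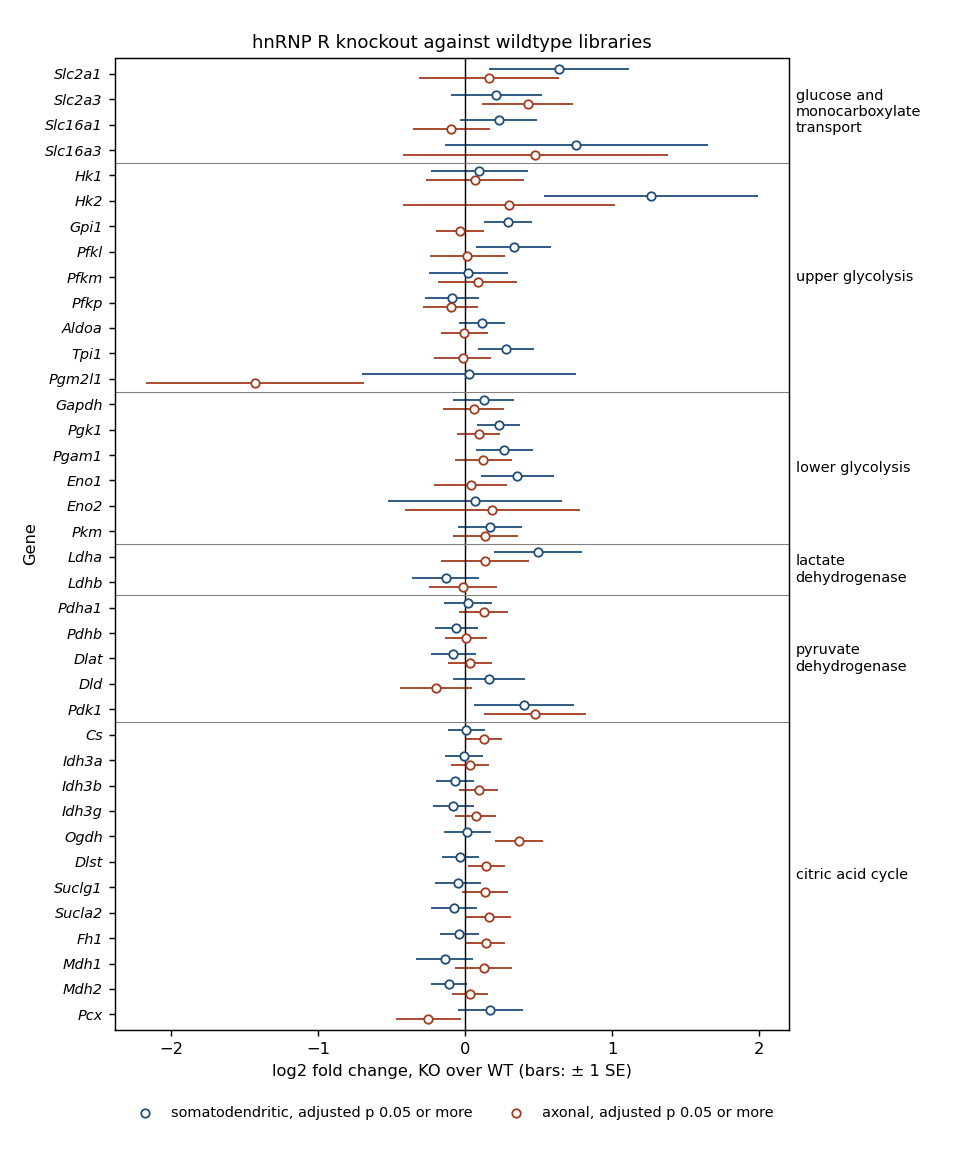
Log2 fold change of KO over WT libraries (x axis, bars ± 1 SE) for each of the 38 genes (y axis, by role) in the somatodendritic (blue) and axonal (red) compartment. Open points mark an adjusted p of 0.05 or more, which holds for all 76 values. *Hk2* in the somatodendritic (1.26) and *Pgm2l1* in the axonal compartment (-1.43) are the ends of the range, and the latter is -0.06 without WT axonal replicate 2.

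The WT somatodendritic libraries differed from each other in some of these genes more than in most transcripts. The ratio of the highest to the lowest of the 4 WT somatodendritic libraries was 38.4 for *Slc16a3*, 25.7 for *Hk2*, 6.25 for *Slc2a1*, 2.46 for *Pdk1* and 2.23 for *Ldha*. Over the 10554 genes with a mean of at least 10 CPM in that group the median ratio was 1.295, and ratios as large as these 5 were reached by 0.0284%, 0.0569%, 0.256%, 1.81% and 2.52% of them. In the KO somatodendritic libraries the ratios of the same 5 genes were 2.498, 4.34, 2.39, 2.12 and 1.24, beside a median of 1.37 over all genes, so that *Ldha* varied less there than most transcripts. Of all 38 members, 23 were above the median ratio of all genes in WT and 9 in KO. For each of these 5 genes WT libraries 1 and 3 were above 2 and 4, and among all 8 somatodendritic libraries KO library 1 was the highest. WT libraries 1 and 3 were also above 2 and 4 for *Bnip3* (243, 109.9, 228 and 110.0 CPM) and *Vegfa* (77.7, 27.01, 46.01 and 23.8 CPM), hypoxia-induced genes outside glycolysis, of which the KO somatodendritic libraries held 315, 225, 258 and 181 CPM and 102, 43.9, 55.96 and 61.3 CPM. By contrast *Cs* (602, 648, 664 and 620.2 CPM), *Mdh2* (439, 483, 469.5 and 449.5 CPM) and *Pfkm* (212, 222, 215 and 225 CPM) were nearly even across the WT somatodendritic libraries.

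Counted over roles, WT somatodendritic library 4 was the lowest of the 8 for 14 of the 21 transport, glycolysis and lactate dehydrogenase genes, where it was the lowest for 15.6% of all 10601 genes compared, and KO library 1 was the highest for 14 of the 21, against 25.9% of all genes. For the 14 hypoxia response genes the numbers were 7 lowest in WT library 4 and 8 highest in KO library 1. For the 17 pyruvate dehydrogenase and citric acid cycle genes WT library 4 was the highest for 8, where it was the highest for 19.6% of all genes, and the lowest for 3. WT library 4 also had the smallest total count (22024923) and WT library 1 the largest of the somatodendritic libraries (34593927), while KO library 1 had 27040743 counts. What set these libraries apart was not tested, and genes and libraries were picked out here after their values had been seen, so no test is given.

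**Figure D5:**
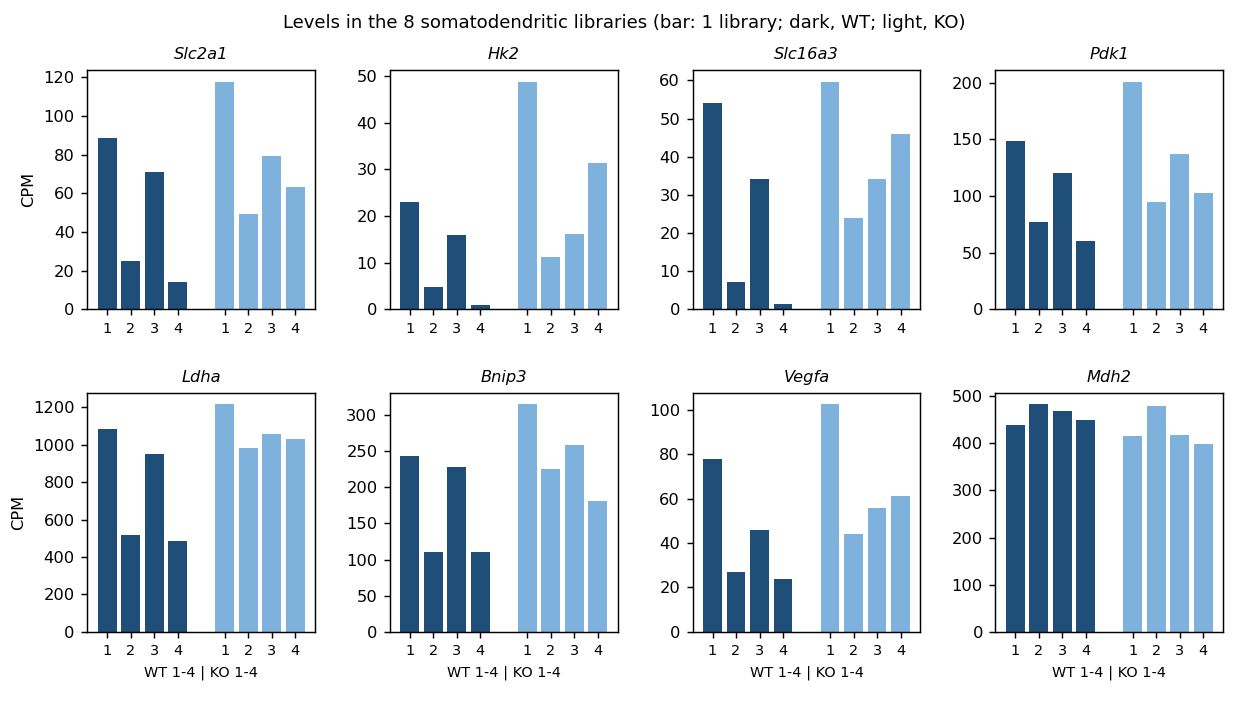
CPM (y axis, from 0) of 5 of the 38 genes with a wide range, the hypoxia response genes *Bnip3* and *Vegfa*, and *Mdh2*, in each of the 8 somatodendritic libraries (x axis, WT 1 to 4 dark and KO 1 to 4 light; each bar is 1 library). WT libraries 2 and 4 were below WT libraries 1 and 3 in every panel but that of *Mdh2*, which stayed between 398 and 483 CPM.

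Because these 5 genes shared their order of WT somatodendritic libraries, 1 promoter of each is shown, as a RefSeq window of 300 bases on GRCm38.p6 (250 bases before and 50 after the start of a transcript; the counts themselves were made on GRCm39). Each is printed 5′ to 3′ in the direction of the gene. Capitals mark ACGTG or GCGTG, the core letters of the HIF binding motif, on the printed strand, or CACGT or CACGC where the motif lies on the other strand; in CACGTG the motif lies on both strands and counts at both positions.
Slc16a3 (chr11:120948817-120949116, plus strand): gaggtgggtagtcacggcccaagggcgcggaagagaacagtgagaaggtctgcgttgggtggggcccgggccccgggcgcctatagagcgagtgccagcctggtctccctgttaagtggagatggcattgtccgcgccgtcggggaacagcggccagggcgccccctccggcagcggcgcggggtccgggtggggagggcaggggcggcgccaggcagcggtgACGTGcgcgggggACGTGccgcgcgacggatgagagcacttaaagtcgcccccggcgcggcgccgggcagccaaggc
Hk2 (chr6:82774405-82774704, minus strand): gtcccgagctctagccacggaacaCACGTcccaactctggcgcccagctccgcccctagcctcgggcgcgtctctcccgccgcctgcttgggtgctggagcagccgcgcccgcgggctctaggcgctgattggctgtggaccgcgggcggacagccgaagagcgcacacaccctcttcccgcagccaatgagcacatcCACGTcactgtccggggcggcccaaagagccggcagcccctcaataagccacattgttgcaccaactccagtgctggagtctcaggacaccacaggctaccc
Slc2a1 (chr4:119108495-119108794, plus strand): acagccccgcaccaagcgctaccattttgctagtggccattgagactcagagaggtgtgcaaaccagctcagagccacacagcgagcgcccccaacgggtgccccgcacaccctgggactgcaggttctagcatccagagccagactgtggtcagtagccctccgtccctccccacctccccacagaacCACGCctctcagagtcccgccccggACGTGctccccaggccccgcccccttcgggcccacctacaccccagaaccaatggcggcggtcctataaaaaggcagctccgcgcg
Pdk1 (chr2:71872974-71873273, plus strand): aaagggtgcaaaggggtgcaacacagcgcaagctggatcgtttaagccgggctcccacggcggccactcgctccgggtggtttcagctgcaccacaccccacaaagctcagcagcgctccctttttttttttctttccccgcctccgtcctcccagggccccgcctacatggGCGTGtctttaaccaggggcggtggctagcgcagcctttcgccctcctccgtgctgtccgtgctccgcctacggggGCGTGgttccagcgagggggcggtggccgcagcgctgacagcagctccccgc
Ldha (chr7:46845554-46845853, plus strand): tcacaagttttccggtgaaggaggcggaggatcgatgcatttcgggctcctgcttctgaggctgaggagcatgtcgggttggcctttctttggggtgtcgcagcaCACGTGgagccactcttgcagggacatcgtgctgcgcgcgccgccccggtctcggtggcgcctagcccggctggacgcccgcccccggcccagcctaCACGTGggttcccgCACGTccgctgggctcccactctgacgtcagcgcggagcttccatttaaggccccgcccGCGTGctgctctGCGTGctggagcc

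The windows shown of *Slc16a3*, *Hk2*, *Slc2a1* and *Pdk1* held 2 motifs each and that of *Ldha* 7. The table has a second start for *Pdk1* (chr2:71874654-71874953), whose window held 0 motifs, and for *Ldha* (chr7:46846832-46847131), whose window held 2. For both genes the window shown is the one with more motifs. Among the genes named as nearly even across the WT somatodendritic libraries, *Cs* held 0, *Mdh2* 1 and *Pfkm* 0 to 3 motifs per window. At least 1 motif lay in 38 of the 53 windows of the members (71.7%), where 43.8% of the 32851 windows of the table held one, and 20.6% of all windows held at least 2. By gene, 27 of the 36 members with a window (75.0%) had at least 1, beside 46.7% of all genes. The motif contains a CpG and the 5 windows are 65.3% to 73.3% G or C, and windows were not matched for base content. A match is a description of the letters in the window and not evidence of binding.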

How the data were processed

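RNA sequencing libraries (SMART-Seq v4) of the somatodendritic and axonal compartments of WT and KO motoneurons were analysed, 16 in all, grouped by their labels. The authors trimmed reads with Cutadapt, aligned them with STAR 2.7.2b to GRCm39 and counted them per gene with featureCounts 1.6.4, with reads of several places or genes shared as fractions and a reverse-stranded setting. The deposited table holds these fractional values, that is, estimated counts per gene and library, together with combined exon length. The kit does not mark strand, so reads of a gene and of an overlapping gene on the other strand cannot be told apart, and fractions of near-identical copies are uncertain. All per-sample columns were mapped to a library (0 were not). Library totals were 22024923 to 34864151, and the counts of a gene limit its precision beside the 4 libraries per group.

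Counts were rounded, filtered with filterByExpr and scaled with TMM factors. A single edgeR 4.0.16 quasi-likelihood model (R 4.3.3, limma 3.58.1) of the 4 groups over 16 libraries gave the compartment difference in each genotype, the genotype difference in each compartment and the difference of the latter. P-values of edgeR were adjusted by Benjamini-Hochberg over 19964 genes, with a threshold of 0.05. The comparisons share libraries. The study itself analysed counts with DESeq2 1.24.0. Standard errors are those of the fitted log2 fold changes. Isoenzyme ratios (per kb, 0.5 counts added) were tested by exact permutation. Copies of at least 95% identity were searched with BLAST+ 2.17.0.

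All 38 members are named, with values per library for the 6 largest called increases and decreases between compartments, the smallest p-values between genotypes and the isoenzyme pairs, and of other pathway genes those with the 2 largest called changes in each direction and a mean of at least 10 CPM. *Vegfa*, *Pdk2*, *Pdk3* and *Pdk4* were added after their values were seen. Members, lists and tests were chosen with earlier results of these data known. Per the study the 4 libraries of a group are biological replicates. The labels do not say which libraries came from the same culture.

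Same-numbered libraries were checked for pairing by the correlation of their deviations from group means over genes. For KO compartments the correlations were 0.438, 0.178, 0.231 and 0.564, all above 0.1, and the numbers were taken to mark shared cultures, a pairing that comes from the data and not from the labels. For WT they were 0.243, 0.248, 0.279 and 0.0943, and the numbers were not taken as pairs. Between genotypes they were -0.0155, 0.171, 0.437 and 0.0184 in the somatodendritic and 0.0735, 0.392, 0.763 and 0.0344 in the axonal compartment, so that replicates 3 and the axonal replicates 2 deviated together, but not all pairs were above 0.1. Alternatives were other scaling, filters, rounding, DESeq2 1.42.0, fits of only the groups compared, blocks, added copies and each library left out. Leaving out both axonal replicates 3, leaving out WT somatodendritic replicates 2 and 4, and the copies found by BLAST were chosen after seeing the data.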

Additional observations from a re-analysis of the deposited data

Results flagged for a closer look

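A single library was tested against the other 3 of its group 152 times (38 genes in 4 groups). In 8 tests it lay far from the others, where chance gives about 1 in 20 for independent tests. The genes share libraries, so the tests are not independent, and the total does not decide on any single flag. *Gapdh* was at 1955 CPM in WT axonal replicate 3 (others 1145 to 1199 CPM) and at 1900 CPM in KO axonal replicate 3 (others 1261 to 1284 CPM). *Eno2* was at 23.2 CPM in WT axonal replicate 3 (others 82.8 to 90.2 CPM), and *Idh3a* at 200.9 CPM in the same library (others 234.8 to 239 CPM). These replicates 3 were also the axonal libraries with the lowest motoneuron marker sums and the most *Acta2* and *Tagln*, whose part in these values was not tested. *Pgm2l1* was at 121.6 CPM in WT axonal replicate 2 (others 7.15 to 23.3 CPM). *Pfkl* was at 194.9 CPM in KO axonal replicate 1 (others 109 to 113 CPM), the KO axonal library with the most motoneuron marker RNA. *Fh1* was at 118.4 CPM in WT axonal replicate 4 (others 142 to 145 CPM) and *Dlst* at 192.1 CPM in KO somatodendritic replicate 3 (others 223 to 229 CPM).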

How the results depend on the processing

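Over the alternatives counted, 15 to 20 members were called between compartments in WT (19 as reported) and 13 to 20 in KO (18 as reported). The fit without WT somatodendritic replicates 2 and 4 was counted only for the genotype comparison in that compartment. Between compartments in WT that fit lost *Slc16a1*, *Pfkm*, *Pfkp*, *Gapdh*, *Ldha*, *Pdha1* and *Cs* (adjusted p from 0.065 to 0.402, edgeR). It gained *Slc16a3* (0.0238) and *Gpi1* (0.0408). With each library left out in turn the counts were 15 to 19 in WT, fewest without WT axonal replicate 3, and 13 to 20 in KO, fewest without KO axonal replicate 3. Without both axonal replicates 3 they were 17 and 16. No called value changed direction. With the replicate block by culture the counts were 19 in WT and 18 in KO, 17 of the latter shared with the fit without the block, since *Slc16a3* was gained and *Cs* lost. The block by culture changed no other call in KO. A block by replicate number alone gained *Slc16a3* and *Tpi1* in KO (adjusted p = 0.017 and 0.04, edgeR). In WT the numbers were not taken as pairs, although each library correlated best with its own number. The block by culture nevertheless paired equal numbers in both genotypes, WT included. The call of *Ldha* in WT was also lost without a filter (edgeR adjusted p = 0.0623), with only the groups compared (0.0746) and with DESeq2 and betaPrior (0.0613). Between genotypes and for the difference of effects, 0 members were called in every fit run with edgeR or DESeq2. Without WT somatodendritic replicate 1 an unadjusted p under 0.05 was reached by 7 of 38 members in the somatodendritic compartment, and by 165 of 20430 genes in all. The exact tests of isoenzyme ratios could not pass when a library was left out (smallest p 0.0571) or with sign flips over 4 pairs (smallest p 0.125), so these say nothing on stability. *Slc16a3*, *Pgm2l1* and *Hk2* had the widest errors.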
